A study of Mus musculus with 5 samples.

Results

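Metalloproteases and their tissue inhibitors were measured in mouse bone marrow-derived macrophages during their differentiation to osteoclasts, the large bone-resorbing cells with many nuclei. The group was defined by gene symbol, as every Mmp, Adam, Adamts or Timp gene carrying a number with at most 1 letter after it. Mmp8, Mmp9, Mmp14, Adam8 and Adam10 were left out. It held 72 of the 22180 genes with a row of their own on the array: 19 matrix metalloproteases, 31 ADAMs, 18 ADAMTS proteases and 4 tissue inhibitors. Adam34, Adamts2 and Mmp15 meet the definition by name but had no row naming them alone and were not analysed here. For genes with more than 1 row, values are those of the row that averaged highest.

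All cells were wild-type, from mice aged 10 weeks, grown on plastic. For differentiation they received M-CSF at 20 ng/ml, on which macrophages depend for survival, together with RANKL at 30 ng/ml, the inducer of osteoclasts. RNA was collected at day 0 from the macrophages, at days 1, 2 and 3 during differentiation, and at day 5 from cells the labels call mature osteoclasts. Each day had 1 Affymetrix array, labelled from 5 ng of total RNA, so 5 arrays make up the whole series. No array after day 0 came from cells kept without RANKL, so time in culture and differentiation cannot be told apart.

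Values are log2 expression after RMA, and differences are the later day minus the earlier day. With 1 array per day there is no replicate spread and no test between days was possible. No trend over the days was fitted. Each difference compares single arrays, and their number limits the precision. A gene was counted as higher or lower at a difference of 1 or more, which is 2-fold. As a yardstick, 2 rows of one gene disagreed on the day 5 minus day 0 difference with an SD of 0.59 over 500 genes, or 0.42 for 1 row, which also holds differences between their probes. Both rows were read on the same arrays, so this SD leaves out variation between cultures and arrays that the rows share. Array medians lay between 4.88 and 4.92, and levels of different genes are not compared because each row has its own probes. The osteoclast markers were all higher at day 5, 9 of 9, by between 1.76 and 6.80. Of the 7 macrophage markers, 4 were lower at day 1 than at day 0, and 2 were lower at day 5. Of the neutrophil markers 8 of 10 were measured, with 4 lower at day 5. Endothelial markers had 4 of 7 measured with 1 higher and 2 lower at day 5, and lymphocyte markers 2 of 6 measured with 1 higher. Of all measured genes, 4.17% were lower at day 1, and 6.78% were higher and 6.56% lower at day 5. These marker lists are short.

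Matrix metalloproteases are zinc enzymes, secreted or held at the membrane, that cut collagens, elastin and other matrix proteins. ADAMs are membrane proteases that release the outer parts of cell surface proteins such as TNF and its receptors, and some family members have lost protease activity. ADAMTS enzymes are secreted relatives that cut proteoglycans, procollagens and von Willebrand factor, while the 4 TIMPs block many of these enzymes. In osteoclasts, collagen in the resorption pit is cut mainly by cathepsin K, and MMP9 and MMP14 are the best known metalloproteases of the cell.

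Genes with a mean log2 value of at least 4.89, the median of the row means, are called measured here. 23 of the 72 members passed: 8 matrix metalloproteases, 8 ADAMs, 5 ADAMTS proteases and 2 tissue inhibitors. Of all 22180 genes 12049 passed, a larger share than among the members. Just inside lay Adam11 with a mean of 4.90 and Mmp17 with 4.93, and just outside Adamts6 with 4.80 and Mmp24 with 4.76. 17 of the 23 were above this level on every array and 6 dipped under it at least once. These 23 were Mmp10, Mmp11, Mmp12, Mmp13, Mmp17, Mmp19, Mmp23 and Mmp27, Adam1a, Adam4, Adam9, Adam11, Adam15, Adam17, Adam19 and Adam33, Adamts4, Adamts7, Adamts10, Adamts13 and Adamts14, and Timp1 and Timp2. The other 49 members stayed below, 46 of them on every array.

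At day 5 the measured members as a group stood close to where they were at day 0. Adamts7 was 2.23-fold higher, Adam15 was 2.88-fold lower and Adamts10 was 2.65-fold lower, while 20 of the 23 were neither. That is 1 higher member against 6.78% of all 12049 measured genes, and 2 lower members against 6.56%. The median difference over the 23 was -0.10, and over all measured genes it was 0. Over the whole series 9 of 23 had a highest day at least 2-fold above their lowest day, against 25.8% of measured genes. They were Mmp13, Mmp27, Adam15, Adam17, Adamts4, Adamts7, Adamts10, Adamts14 and Timp2, and they followed 3 courses. A single highest array fell on day 0 in 12 of the 23 (24.1% of measured genes), on day 1 in 0 (24.3%), on day 2 in 2 (12.9%), on day 3 in 6 (18.6%) and on day 5 in 2 (16.2%).

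In the first course the value was lower by day 1, as in Mmp13, Mmp27 and Adamts10. In the second it was lower on each of the next days down to day 3, as in Adam15 and Adam17. In the third the maximum was at day 3, as in Adamts4, Adamts7, Adamts14 and Timp2. The courses were described after the values were seen. RefSeq (GRCm38.p6) promoter sequences were at hand for 43 of the 72 members and 14 of the 23 measured ones, and the 6 of these 9 genes found there are shown so that the courses' promoters can be compared. Each runs from 250 bases before to 30 bases after the annotated start, 5′ to 3′, and capitals mark matches on either strand to the motifs named after them.
Mmp13, chr9:7272264-7272543, strand +: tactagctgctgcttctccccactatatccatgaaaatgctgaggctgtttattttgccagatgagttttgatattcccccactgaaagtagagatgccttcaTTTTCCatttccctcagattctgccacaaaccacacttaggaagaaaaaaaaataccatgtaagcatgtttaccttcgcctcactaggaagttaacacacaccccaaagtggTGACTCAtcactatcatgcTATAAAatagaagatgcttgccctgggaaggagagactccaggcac
Mmp27, chr9:7571146-7571425, strand +: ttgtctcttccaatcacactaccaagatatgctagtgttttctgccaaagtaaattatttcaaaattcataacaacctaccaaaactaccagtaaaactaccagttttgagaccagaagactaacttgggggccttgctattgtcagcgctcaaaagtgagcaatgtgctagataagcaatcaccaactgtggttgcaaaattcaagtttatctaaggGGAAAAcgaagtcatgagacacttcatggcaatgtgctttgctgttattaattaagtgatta
Adam15, chr3:89349999-89350278, strand -: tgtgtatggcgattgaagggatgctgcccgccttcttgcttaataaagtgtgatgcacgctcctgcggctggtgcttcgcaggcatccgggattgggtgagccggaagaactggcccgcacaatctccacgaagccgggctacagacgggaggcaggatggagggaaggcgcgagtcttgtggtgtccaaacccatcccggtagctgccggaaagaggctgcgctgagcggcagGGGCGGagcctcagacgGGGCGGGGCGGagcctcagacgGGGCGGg
Adam17, chr12:21373603-21373882, strand -: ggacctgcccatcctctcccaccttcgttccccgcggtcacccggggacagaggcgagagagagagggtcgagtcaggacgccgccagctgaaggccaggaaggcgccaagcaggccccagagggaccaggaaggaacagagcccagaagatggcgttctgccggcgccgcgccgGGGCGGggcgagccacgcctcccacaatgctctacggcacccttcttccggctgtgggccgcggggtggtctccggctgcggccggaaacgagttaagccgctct
Timp2, chr11:118355382-118355661, strand -: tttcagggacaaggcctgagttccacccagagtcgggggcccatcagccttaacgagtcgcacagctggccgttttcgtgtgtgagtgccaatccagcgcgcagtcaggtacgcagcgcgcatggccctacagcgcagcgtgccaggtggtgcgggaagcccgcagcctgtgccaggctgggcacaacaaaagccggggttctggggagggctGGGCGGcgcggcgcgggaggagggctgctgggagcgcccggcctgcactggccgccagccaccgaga
Adamts14, chr10:61273390-61273669, strand -: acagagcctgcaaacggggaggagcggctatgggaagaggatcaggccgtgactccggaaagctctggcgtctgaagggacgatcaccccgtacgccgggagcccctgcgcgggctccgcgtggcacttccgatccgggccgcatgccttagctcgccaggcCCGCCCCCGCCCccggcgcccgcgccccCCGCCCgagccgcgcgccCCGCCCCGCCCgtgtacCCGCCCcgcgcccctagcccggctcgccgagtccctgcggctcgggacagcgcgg

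The motifs searched on both strands were AP-1 as TGANTCA, NFAT as GGAAAA, the E-box as CATGTG or CACGTG, PU.1 as GAGGAAGT, the TATA box as TATAAA and the GC box as GGGCGG. The Mmp13 window held an AP-1 match beginning at position -35 from the start, a TATA match at -16 and an NFAT match on the other strand at -147. That of Mmp27 held 1 NFAT match, at -32. The 4 remaining windows held GC boxes alone: 4 in Adam15, 1 in Adam17, 1 in Timp2 and 6 in Adamts14. In Adam15 and in Adamts14, 1 pair of GC boxes overlapped by 1 base. The GC box was added after the sequences were seen. The GC content of these 4 windows lay between 64.6% and 76.8%, while Mmp13 had 42.9% and Mmp27 37.5%, and the median over 32851 windows of the same length was 52.5%. AP-1 matches were present in 7.46% of those windows, NFAT matches in 22.2%, TATA matches in 13.1% and GC boxes in 34.7%. Among the 48 windows of all members, 13 held an AP-1 match, 10 an NFAT match, 11 an E-box, 3 a PU.1 match, 13 a TATA match and 17 a GC box. Of the 18 windows of measured members, 4, 5, 3, 1, 3 and 8 held these motifs in the same order. An AP-1 and a TATA match, as in Mmp13, were also found in windows of Mmp10 and Mmp12, which were highest at day 2. Windows of Mmp1a, Mmp1b, Mmp3, Mmp7, Mmp20 and Adam29, all below the filter, held both as well. The pair is thus not particular to the first course. E-box and PU.1 matches, held by 19.5% and 2.82% of all windows, were in none of the 6 shown. A match is a string of letters and says nothing of binding.

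**Figure D1:**
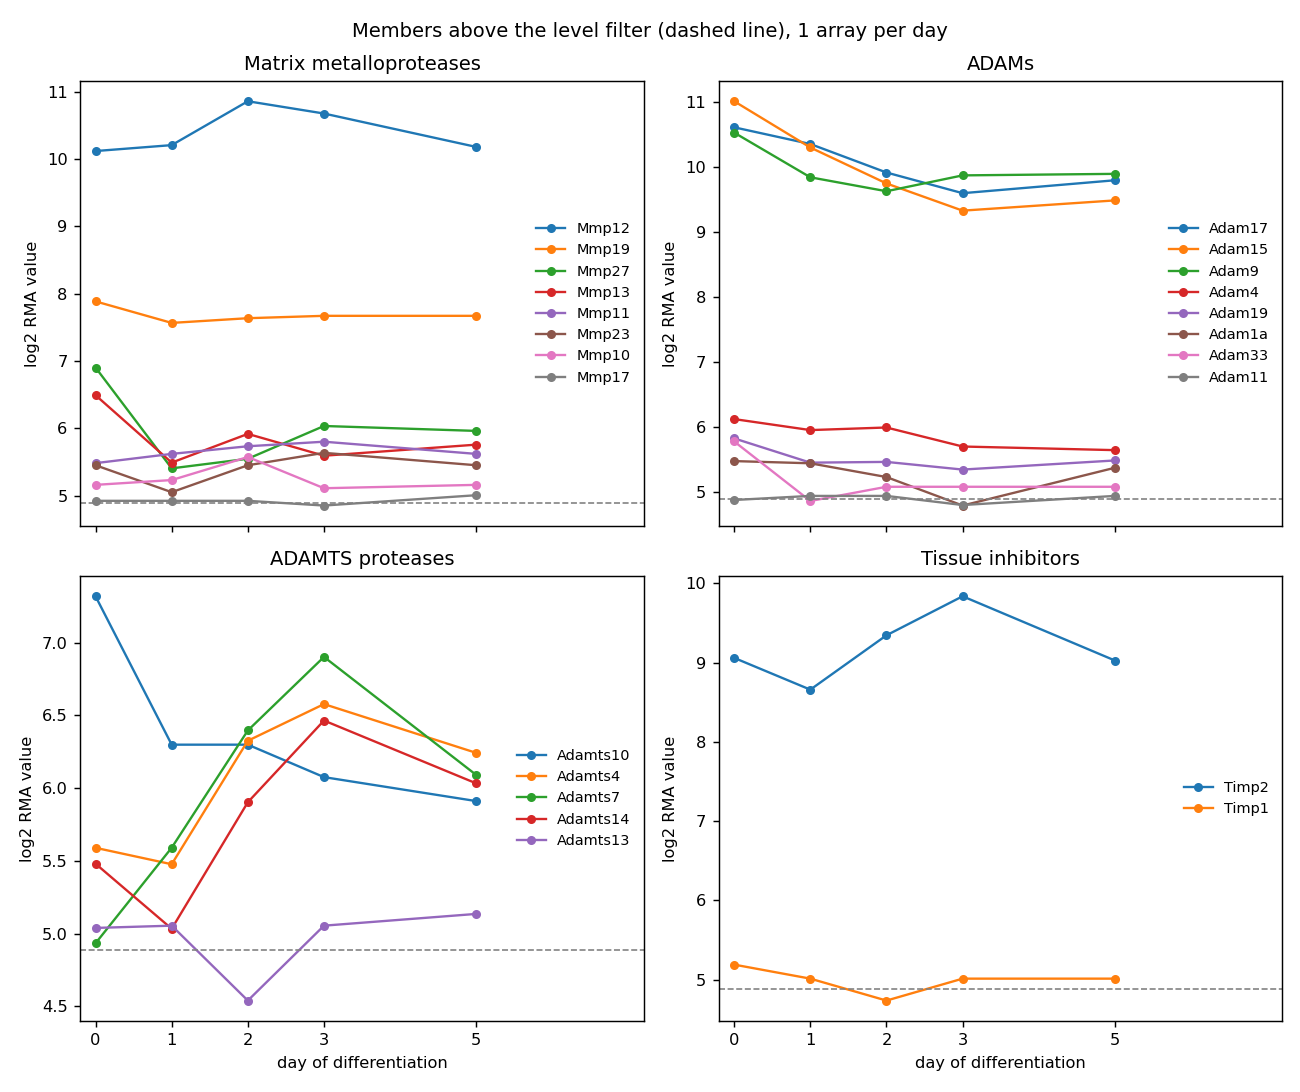
Log2 RMA value (vertical axis) against day of differentiation (horizontal axis) for the 23 members above the level filter, 1 point per array, with the filter level dashed. Adam15 and Adam17 are highest at day 0 and lowest at day 3, Adamts4, Adamts7, Adamts14 and Timp2 are highest at day 3, and Mmp13, Mmp27 and Adamts10 are lower at day 1 than at day 0.

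Among the matrix metalloproteases, Mmp13 and Mmp27 were lower at day 1 than at day 0, and no other measured one passed 2-fold against day 0 on any day. Mmp13, collagenase-3, had log2 values of 6.49, 5.49, 5.92, 5.59 and 5.76 on days 0, 1, 2, 3 and 5. It was highest at day 0, and the day 1 minus day 0 difference of -1.001 lay on the 2-fold limit. Mmp27, a little-studied member of the same gene cluster, had 6.90, 5.41, 5.55, 6.04 and 5.96 on those days. Its difference was -1.50 at day 1, and at day 5 it was -0.94, part of the way back. At day 1 the lower members were Mmp13, Mmp27 and Adamts10, 3 of 23 against 4.17% of measured genes, and 0 were higher against 2.91%. When each array was shifted to one median over all genes, 1 of these 3, Mmp27, was past 2-fold at day 1.

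Mmp12, the macrophage elastase that cuts elastin and other matrix proteins, had 10.12, 10.21, 10.86, 10.68 and 10.18 on the 5 days in order. Days 2 and 3 stood above the other 3 arrays, by 0.74 and 0.56 over day 0, and the day 5 value was within 0.06 of day 0. No day differed from day 0 by 2-fold. Mmp19, a secreted metalloprotease, varied by 0.32 in all, from 7.57 at day 1 to 7.89 at day 0. Mmp10 (stromelysin-2), Mmp11 (stromelysin-3), Mmp23 and the lipid-anchored Mmp17 stayed between 4.85 and 5.80 on all arrays, with ranges over the days of 0.46, 0.32, 0.58 and 0.15.

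In RefSeq, 10 Mmp genes lie on the chromosome of Mmp12 in the order Mmp13, Mmp12, Mmp1b, Mmp3, Mmp1a, Mmp10, Mmp8, Mmp27, Mmp20 and Mmp7. Of the 9 that are members, 4 were measured, and these neighbours did not share one course. Mmp13 and Mmp27 were highest at day 0, and Mmp12 and Mmp10 at day 2. Mmp3 and Mmp20 held one value on all 5 arrays, at 3.53 and 4.40, which is below the filter. Mmp1a, Mmp1b and Mmp7, which is matrilysin, also stayed below it.

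Mmp2, gelatinase A, missed the filter on its mean of 4.64 but is the member below it that ended highest relative to its start. Its log2 values were 4.36, 4.11, 4.58, 4.89 and 5.28 on days 0, 1, 2, 3 and 5. Day 5 was the one array above the filter, and the day 5 minus day 0 difference was 0.92. Of the membrane-type enzymes, Mmp16, Mmp24 and Mmp25 lay below the filter on their means, with day 5 minus day 0 differences of -0.08, 0.09 and 0.02.

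**Figure D2:**
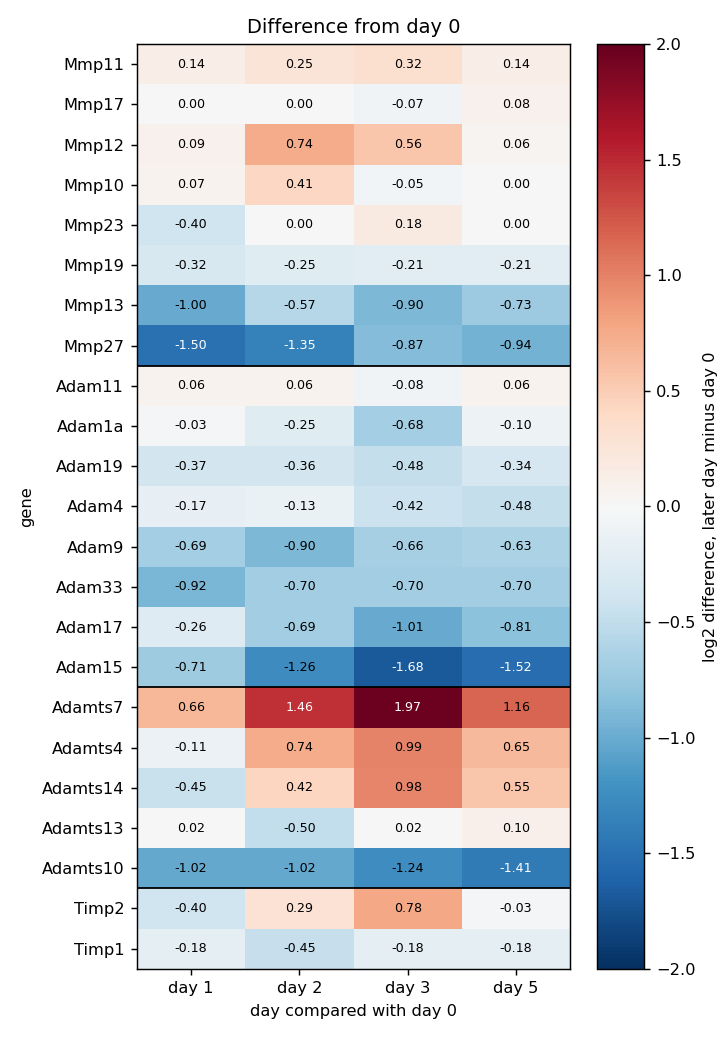
Log2 difference of each later day from day 0 for the 23 measured members, 1 row per gene grouped into matrix metalloproteases, ADAMs, ADAMTS proteases and tissue inhibitors from top to bottom, with the value printed in each cell. Red cells are higher than day 0 and blue cells lower, on a scale running between -2 and 2; the ADAM block is mostly blue and the ADAMTS block is split.

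Most measured ADAMs lay below their day 0 values by less than 2-fold. At day 3 this held for all 8 in sign, with a median difference of -0.67, where 48.7% of measured genes lay below day 0. At day 5 it was 7 of 8 with a median of -0.56, against 49.2% of measured genes. Adam11, which lacks protease activity, was the exception at day 5 with 0.06. In 7 of the 8 the highest array was day 0, against 24.1% of measured genes with a single maximum there. All of these differences share the single day 0 array. Measured from day 1, the ADAMs at day 5 had a median of -0.03, with 3 above 0 and 4 below. The median over measured genes was 0. The 4 below were Adam15 at -0.81, Adam17 at -0.56, Adam4 at -0.31 and Adam1a at -0.07. Past 2-fold lower than day 0 were 1 of 8 at day 5, against 6.56% of measured genes, and 2 of 8 at day 3, against 7.50%. Over the same days the mean of the 7 macrophage markers was 11.45, 9.85, 9.74, 10.11 and 10.32 on the log2 scale, and its part in these differences was not tested. In RNA from whole cultures, fewer cells of a type and less RNA per cell cannot be told apart.

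Adam15, a membrane protease with an integrin-binding disintegrin domain, had the largest difference of the 8. Its log2 values were 11.01, 10.30, 9.74, 9.33 and 9.48 on days 0, 1, 2, 3 and 5. Every array after day 0 was lower than day 0, and days 3 and 5 were the lowest, at -1.68 and -1.52. Day 5 minus day 1 was -0.81. A second row annotated to Adam15 did not follow. That row had 6.38, 6.40, 6.18, 6.38 and 6.51, a day 5 minus day 0 difference of 0.13, and the mean of both rows gave -0.70, which is under 2-fold.

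Adam17, the sheddase that frees TNF and its receptors, had 10.61, 10.35, 9.91, 9.59 and 9.79 on the 5 days. The order of the arrays was that of Adam15, with a minimum at day 3, where the difference from day 0 was -1.01. At day 5 it was -0.81, inside the 2-fold limit. Adam9, a further broadly expressed sheddase, had 10.53, 9.84, 9.62, 9.87 and 9.89. It was already lower at day 1, at -0.69, and day 5 stood 0.05 above day 1.

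Adam33, a protease known from airway studies, had 5.78, 4.86, 5.08, 5.08 and 5.08, so that day 0 stood above 4 arrays at or near the filter. Adam19, meltrin beta, Adam4 and Adam1a, which is best known from sperm, spanned 0.48, 0.48 and 0.68 over the days and were at -0.34, -0.48 and -0.10 at day 5. A second Adam19 row below the filter was at 0.34 at day 5, and the mean of both rows gave -0.0009. Of the widely expressed ADAM proteases, Adam12 and Adam28 were among the 23 ADAMs below the filter. Adam12, which is known from fusing muscle cells, was between 4.20 and 4.26 on all arrays. Adam28 was between 3.31 and 3.46.

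**Figure D3:**
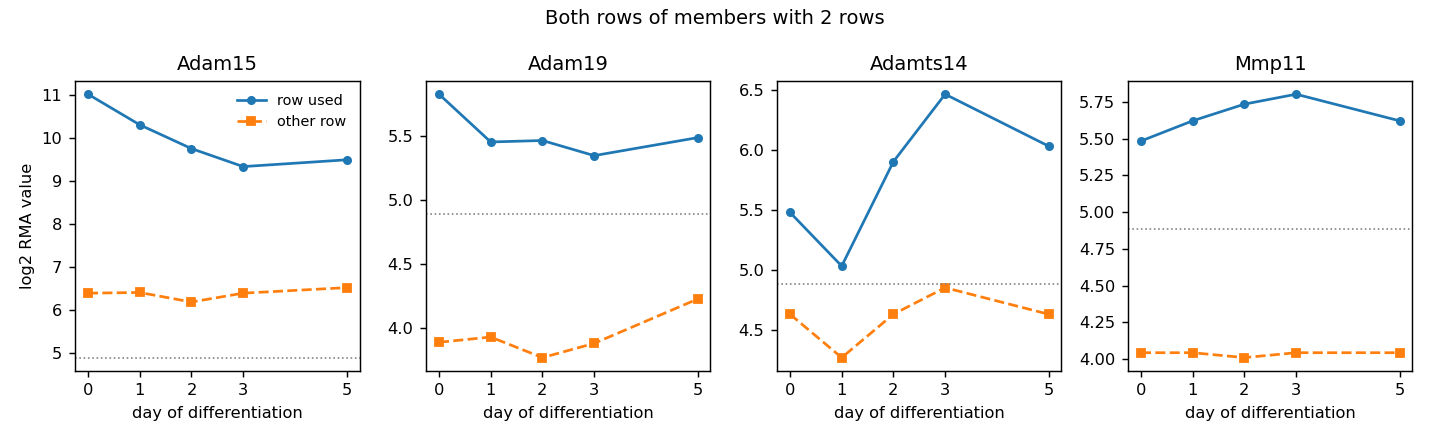
Log2 RMA value against day of differentiation for both rows of Adam15, Adam19, Adamts14 and Mmp11, the measured members with 2 rows, with the row used as a solid line, the other row dashed and the filter level dotted. The second row of Adam15 stays between 6.18 and 6.51 while the row used reaches 9.33 at day 3, and both rows of Adamts14 are lowest at day 1 and highest at day 3.

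Within the measured ADAMTS enzymes 3 members had their maximum at day 3 and 1 was lower than day 0 throughout. Adamts7, known for cutting cartilage oligomeric matrix protein, had 4.93, 5.59, 6.40, 6.90 and 6.09 on days 0, 1, 2, 3 and 5. It was higher than day 0 on every later array, 3.91-fold at day 3 and 2.23-fold at day 5. Its substrate gene Comp lay below the filter, between 4.52 and 4.62. The day 0 value of Adamts7 lay at the filter. Its day 5 difference was 1.14 after a shift by the median change of 12 reference genes, and 0.67, under 2-fold, when the arrays' median levels of these genes were made equal. The second scaling moved every gene by -0.49, although the reference genes had a median difference of 0.01, with Tfrc at 2.43 and Sdha at 1.10 among them. It put Mmp11, Mmp12, Mmp17, Adam11 and Adamts13, which were between 0.06 and 0.14, below 0.

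Adamts4, an aggrecanase, had 5.59, 5.48, 6.33, 6.58 and 6.24. The 3 later arrays lay above both early ones, and the differences from day 0 were 0.99 at day 3, just inside 2-fold, and 0.65 at day 5. Adamts14, which trims the amino-terminal propeptide of procollagens, had 5.48, 5.03, 5.90, 6.47 and 6.03. Its lowest array was day 1 and its highest day 3, with 0.98 over day 0, and day 5 minus day 1, at 0.999, lay just short of the limit. A second Adamts14 row below the filter was also lowest at day 1 and highest at day 3, with 4.27 and 4.85, and averaging both rows gave 0.60 over day 0 at day 3. The untied maximum was at day 3 in 3 of the 5 measured ADAMTS genes, against 18.6% of measured genes.

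Adamts10, which associates with fibrillin microfibrils, was highest at day 0, with 7.32, 6.30, 6.30, 6.08 and 5.91. Most of the difference was present at day 1, at -1.02, and day 5 was the lowest array at -1.41. Adamts13, the von Willebrand factor protease, had 5.04, 5.06, 4.54, 5.06 and 5.14. Its day 2 array lay under the filter and the others agree within 0.10. Of the ADAMTS proteoglycanases other than Adamts4, the 6 listed (Adamts1, Adamts5, Adamts8, Adamts9, Adamts15 and Adamts20) were all below the filter, as were Adamts12, Adamts16, Adamts17, Adamts18, Adamts19, Adamts3 and Adamts6 on their means. Adamts6 reached 5.08 at day 0 and held between 4.71 and 4.73 afterwards.

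Of the 4 tissue inhibitors, Timp2 was the one far above the filter. Timp2, which besides blocking metalloproteases helps MMP14 activate MMP2, had 9.06, 8.66, 9.35, 9.84 and 9.03 on days 0, 1, 2, 3 and 5. Day 3 was the highest array and day 1 the lowest, 1.18 apart. Day 5 lay 0.81 below day 3 and within 0.03 of day 0, so the day 3 maximum does not appear in the comparison of day 5 with day 0. The SD of day 5 minus day 3 over all measured genes was 0.24. That is a spread between genes and does not measure the error of a single row. Timp1 had 5.19, 5.01, 4.74, 5.01 and 5.01, near the filter on every array. Timp3, the matrix-bound inhibitor of ADAM17, was between 2.73 and 2.86, and Timp4 between 4.28 and 4.59, both below the filter on every array.

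Between day 3 and day 5 no measured member passed 2-fold, where 0.158% of measured genes were higher and 0.116% lower. The same held from day 1 to day 2, where 2.46% of measured genes were higher and 0.556% lower, and from day 2 to day 3, with 2.08% and 3.91%. Day 5 against day 1 also gave 0 of 23 members past 2-fold, against 6.30% of genes higher and 6.73% lower. At day 3 against day 0, Adamts7 was higher (7.29% of genes) and Adam15, Adam17 and Adamts10 were lower (7.50%). At day 2 against day 0, Adamts7 was higher (5.18% of genes) and Adam15, Adamts10 and Mmp27 were lower (5.25%). Among the 23 measured members the lowest day 5 minus day 3 differences were those of Timp2 and Adamts7, both -0.81, and the highest was that of Adam1a, 0.58.

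Below the filter, 49 members gave little to follow. Their means lay between 2.69 and 4.80, and 37 of them varied by under 0.5 over the 5 arrays. 9 members held exactly the same value on all arrays, and 21 of the 49 had equal values at day 5 and day 0. Shares over all genes below the filter were not computed, so these counts cannot be called particular to the members. Among the measured members, 2 had equal values at day 5 and day 0, Mmp10 and Mmp23, a share close to that of all measured genes. None of the 49 reached 2-fold between day 5 and day 0, the largest being the 0.92 of Mmp2. Adam26a, Adam26b and Adam34l, named for the size of their range after their values were seen, spanned 1.13, 1.29 and 1.17 without passing the filter on any array.

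The 5 metalloproteases left out of the definition include the best known osteoclast enzymes. Mmp9 and Mmp14 were higher at day 5 than at day 0, by 5.59 and 3.76 on the log2 scale, and Adam8 was lower at -1.59, while Adam10 and Mmp8 were at -0.97 and -0.51. Mmp14 was highest at day 3, like Timp2, with 11.55 at day 3 and 11.28 at day 5, but its day 5 value lay well above its day 0 value of 7.52.

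Genes that make, place or clear these proteases were read from a list of 20, of which 13 were measured. At day 5 against day 0, 0 were higher, 3 were lower and 10 were neither, with a median of -0.06, where 6.78% of measured genes were higher and 6.56% lower. The lower ones were Plau, the urokinase that starts plasmin-driven activation of metalloproteases, at -2.34, its receptor Plaur at -2.04, and Lrp1, the endocytic receptor that clears metalloproteases and their inhibitors, at -1.61. Of the ADAM17 cofactors, Rhbdf1 was at 0.91 and Rhbdf2 at -0.90. Furin, which removes the propeptide of ADAMs, was at -0.03.

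Of 23 listed membrane proteins that ADAM17 or ADAM10 can shed, 18 were measured, with 1 higher, 3 lower and 14 neither at day 5 against day 0 (median -0.46), beside the same 6.78% and 6.56% of measured genes. Hbegf, a growth factor precursor, had 4.97, 5.81, 8.05, 7.41 and 7.91 on days 0, 1, 2, 3 and 5 and was 2.94 higher at day 5 than at day 0. Tnf was at -2.26, Notch1 at -2.01 and the interleukin-6 receptor Il6ra at -1.04. Measured from day 1, the list had a median of -0.08 at day 5, with 3 higher and 0 lower, against 6.30% and 6.73% of measured genes. Tnfrsf11a, which encodes RANK, was at 0.11 and Csf1r, the M-CSF receptor, at -0.14.

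Matrix proteins that these enzymes cut were a list of 15, of which 10 were measured: 4 were higher at day 5, 1 was lower and 5 were neither (median 0.34), against 6.78% of measured genes higher and 6.56% lower. Fibronectin, Fn1, was at -3.93. The proteoglycans Dcn, Vcan and Hspg2 were at 1.93, 1.64 and 1.61, and Vwf, the substrate of Adamts13, was at 1.87. Dcn and Vcan were already higher at day 1, by 3.26 and 2.16. Dcn is also a stromal marker, and of 11 stromal and osteoblast markers on the array Dcn and Col1a1 were the 2 above the filter, with Col1a1 between 5.06 and 5.38. The mean of the 11 was 4.11, 4.35, 4.40, 4.48 and 4.36 on the 5 days. Without Dcn the mean of the other 10 lay between 3.94 at day 1 and 4.13 at day 3. The part of these markers in the values of Mmp2, Timp2 and the ADAMTS genes was not tested.

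**Figure D4:**
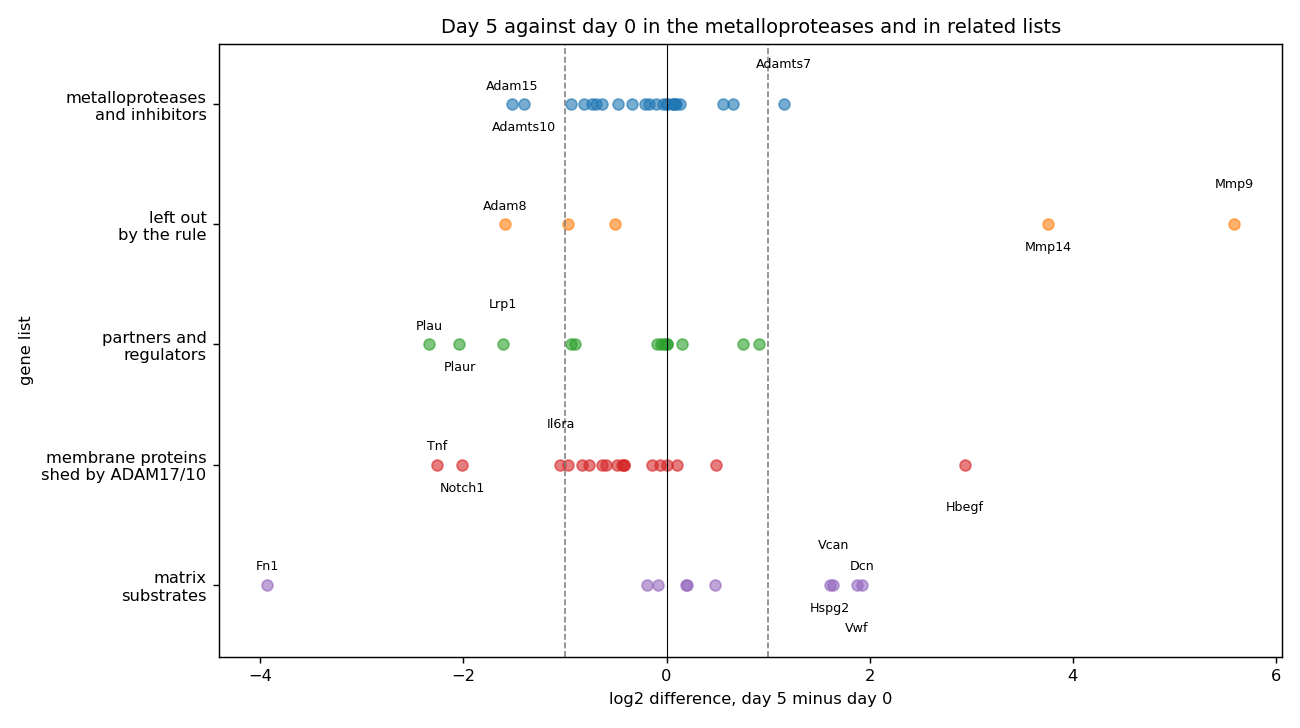
Log2 difference of day 5 minus day 0 (horizontal axis) for measured genes of 5 lists (vertical axis), 1 point per gene, with dashed lines at 2-fold either way and names on the genes past them. Adamts7 lies right of the lines and Adam15 and Adamts10 left among the metalloproteases and inhibitors, while Mmp9 and Mmp14 lie far to the right in the list left out by the rule.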

How the data were processed

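Total RNA was extracted with Trizol and labelled with the Affymetrix WT Pico kit, per the labels' protocols. The submitters' processing notes name RMA, oligo and R 3.4.0 for the log2 values that the authors deposited. RMA subtracts background, normalises arrays by quantiles, which hides any shift of all genes, and summarises rows by median polish. For the summary level and genome build, nothing is given in the sources used.

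Of 41345 rows, 23521 named 1 gene in the platform annotation, 1814 named several and 16010 were not listed. All 72 members matched RefSeq of GRCm38.p6 by Entrez identifier, with 0 symbols changed. The filter at 4.89 is the median of the means of all rows. Background shares were computed over the 12049 genes at or above it. Every member above the filter is named. Below it, members are named only where they reach it on an array or belong to a role list, except Adam26a, Adam26b and Adam34l, chosen for their range after their values were seen. From the lists of partners, shed proteins, matrix substrates and reference genes, those past 2-fold at day 5 and up to 4 more are named. Cell type markers are given as counts. The members and lists were chosen with earlier results of these data known. The counting was tested on simulated data with changes added well past the 2-fold limit, so changes near it were not covered. Alternatives covered the rows used, the scaling, the filter, the size called, the days compared and the symbols counted. Python 3.11.15, numpy 2.4.6, pandas 2.3.3 and matplotlib 3.10.9 were used.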

Additional observations from a re-analysis of the deposited data

How the results depend on the processing

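The member counts at day 5 against day 0, 1 higher and 2 lower, kept both values when arrays were shifted to one median, when no filter was used, when the highest array set the filter and when symbols with a letter were dropped. After the shift to one median, 6.41% of measured genes were higher and 7.02% lower. Making the arrays' median levels of 12 reference genes equal moved every gene by -0.49 and gave 0 of 23 members higher, against 3.45% of measured genes, 7 lower, against 16.2%, and a median of -0.59. The reference genes' own median difference was 0.01. A shift by their median change, chosen after seeing the data, gave 1 higher and 2 lower at day 5. The shares of measured genes were then 6.62% and 6.71%. At day 1 that shift left 1 lower. Averaging a gene's rows left 1 lower, since Adam15 became -0.70. A filter at the 75th percentile kept 6 members, with 0 higher and 1 lower at day 5 and 0 lower at day 1. Shares of all genes were not computed for the other filters, for averaged rows or for day 1 after a shift. A limit of 1.5-fold gave 2 higher and 7 lower at day 5, against 13.3% and 14.0% of measured genes, and 1 higher and 6 lower at day 1, against 9.75% and 9.79%. A limit of 3-fold gave 0 in each of these counts, against 3.14% and 2.22% of genes at day 5 and 0.797% and 1.34% at day 1. With day 1 in place of day 0 there were 0 higher and 0 lower, against 6.30% and 6.73% of measured genes. At day 1, where 0 members were higher and 3 lower, the median shift left 1 lower, and 1 was higher without a filter. The median of the measured members at day 5 was 0.05 with day 1 in place of day 0, and Adamts7, Adam15 and Adamts10 kept their sign from day 1 (0.50, -0.81 and -0.39). From day 1 to day 5, Mmp13 and Mmp27, which were lower at day 1, differed by 0.27 and 0.56. The cause of these changes was not tested beyond what each setting changes. Signal near background limits the 49 members below the filter. No paired analysis was possible because each day has 1 array and the labels give no replicate numbers.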
